A study of Saccharomyces cerevisiae with 20 samples.

Results

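The Ty1 retrotransposon rows of a budding yeast transcript series are described here across a strain lacking SET1 and its wild type. A row is 1 line of the deposited tables, with 1 value per library. The rows were chosen by annotated identifier, as rows whose identifier, or a part of it, is on a list of 31 Ty1 gag-pol genes, and 30 of the 6532 rows matched. The list was proposed with results of these data in view, so all levels, tail lengths and strain differences of the 30 rows are given as a description. YNL054W-B had no row and was not analysed here. Of the 30 rows, 28 join a gag-pol gene with the gag gene inside it. The row of YAR009C is a truncated gag-pol gene, and YDR170W-A is annotated as gag alone.

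The libraries came from delta_set1 cells (set1Δ below), whose parent strain the labels do not name, and from WT cells of strain W303a. Set1 is the methyltransferase that adds methyl groups to lysine 4 of histone H3. Each strain was sampled once as an asynchronous culture in rich medium at 30 °C and 9 times after release from arrest by 5 µg/ml α-factor, every 15 min between 0 and 120 min. The assay was PAT-seq, which reads messenger RNA at its 3′ end and measures the poly(A) tail.

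Ty1 elements are copies of a retrotransposon that make an RNA, copy it back into DNA inside a virus-like particle and insert the copy elsewhere in the genome. Each full copy is flanked by long terminal repeats (LTRs). The 5′ LTR holds the promoter and the 3′ LTR holds the end of the RNA. The gag gene encodes the particle's coat, and pol encodes the protease, integrase and reverse transcriptase. The pol part is made when ribosomes slip forward by 1 base at the end of gag. The transcription factors Ste12 and Tec1 bind Ty1 and drive its transcription, and both belong to the pathways that answer mating pheromone and starvation.

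All coordinates are from assembly R64, the reference genome of strain S288C. Of the 30 rows, 29 lie in annotated Ty1 elements of 5493 to 6028 bases, spread over 12 of the 16 nuclear chromosomes. Positions of Ty1 differ between laboratory strains, so a row may hold reads of copies that stand elsewhere in these cells. The reading frames of the 28 gag-pol genes had a median nucleotide identity of 97.0% over 378 pairs, with a range of 86.3% to 99.98%. Identity to the 10 gag-pol frames of the related Ty2 family had a median of 75.4%. Of the 29 elements, 22 had an annotated tRNA gene within 1000 bases, as did 7 of 10 Ty2 elements, against 6.61% of 5972 other protein-coding genes. The last 150 bases of the element, a stand-in for what reads cover, were identical in at least 1 other element for 21 rows. Reads of such copies can be split between rows, so the sum over all 30 rows and the tail mean weighted by poly(A) reads are the main values below.

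The heptamer at which ribosomes shift from gag to pol was the same in all 28 gag-pol rows. Capitals mark it, and of the 30-base stretches around it 13 rows carried the first below and 13 the second. The first is from YER138C (chrV:447705-447734, minus strand) and the second from YJR029W (chrX:479634-479663, plus strand).
YER138C: cacgaccttcacCTTAGGCcaggaacttac
YJR029W: cacgaccttcatCTTAGGCcagaaacttac

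The 3′ LTRs fell into 5 sequence types, lettered A to E by falling mean level of their rows, and they are shown because the rows are described by type below. The types were defined by bases 16 to 30 of the LTR and by a window of 30 bases around the TATA element, after the levels had been seen. Capitals mark TATAAA. The windows are from YER138C for type A (chrV:443553-443582, minus strand), YJR027W for B (chrX:478202-478231, plus strand), YGR027W-B for C (chrVII:541500-541529, plus strand), YDR261C-D for D (chrIV:987303-987332, minus strand) and YMR045C for E (chrXIII:357155-357184, minus strand).
type A, 5 rows: caatgaaTATAAAcaTATAAAacggaatga
type B, 4 rows: caatgaaTATAAAcaTATAAAatgatgata
type C, 7 rows: caatgaaTATAAAcaTATAAAacggaatga
type D, 4 rows: caatgaatattaacaTATAAAacgatgata
type E, 8 rows: aatgaaacaTATAAAacggaatgaggaata
Types A and C had the same window and were separated by the first 30 bases of the LTR. Type B started like A, and type E like C. These starts are from YER138C (chrV:443704-443733, minus strand), YGR027W-B (chrVII:541348-541377, plus strand) and YDR261C-D (chrIV:987454-987483, minus strand).
type A: tgttggaatagaaatcaactatcatctact
type C: tgttggaataaaaatccactatcgtctatc
type D: tgttggaataaaaatcaactatcatctact
The 3′ LTR of YER160C is annotated with 139 bases only and was not typed. The type was the same at both ends of the element in 26 of the 28 typed rows. The other 2, YJR027W and YJR029W, are neighbours that share the LTR between them.

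The promoter is shown for YER138C, the row with the highest mean level, as the first 200 bases of its 5′ LTR (chrV:449121-449320, minus strand), a stretch that 5 elements held without a difference. Capitals mark TGAAACG, a form of the site that Ste12 binds, and TATAAA.
YER138C: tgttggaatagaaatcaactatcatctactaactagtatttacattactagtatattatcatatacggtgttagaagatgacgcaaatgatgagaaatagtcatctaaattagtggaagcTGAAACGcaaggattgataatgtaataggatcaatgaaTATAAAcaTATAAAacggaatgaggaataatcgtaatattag
Matches on either strand were sought in the 300 bases before each reading frame, for the 29 rows in elements and for 6020 protein-coding genes. TGAAACG was present in 20 of 29 rows and in 4.42% of the genes. TGAAACA, which differs from it in the last letter and is the common form of the Ste12 site, was present in the 8 rows of type E and in 7.18% of the genes. In the type E window above, a TGAAACA stands directly before TATAAA, whereas TGAAACG in YER138C stands further ahead of it. CATTCC, a form of the Tec1 site, was present in 20 of 29 rows and in 10.1% of the genes, and its other form, CATTCT, in 0 of 29 rows and 17.0% of the genes. By type of the 3′ LTR, CATTCC was in 4 rows of A, 1 of B, 6 of C, 0 of D, 8 of E and 1 untyped row. The bases searched lie at the 5′ end of the element, where YJR027W has type C and not B, and YJR029W type B and not C. The counts for B and C therefore do not give the content of those LTR types. TATAAA was present in 28 of 29 rows and in 48.4% of the genes. The window of the truncated YAR009C lies inside the element and not in its LTR. A match is a stretch of letters and not a measured binding site.

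Library depth was 476565 to 2200423 reads in set1Δ and 668987 to 2413354 reads in WT. SET1 had 9.76 ± 2.81 reads per 1000000 (CPM) in set1Δ and 44.1 ± 14.6 CPM in WT (SD, n = 10 time points each), and no time point of set1Δ reached the WT value of the same time. The defining marker genes of mating type a were present in both strains, with STE2 at 59.5 to 1016 CPM in set1Δ and 248 to 1010 CPM in WT. They were called lower in set1Δ, with log2 differences of −2.01 for MFA1, −1.69 for MFA2 and −1.31 for STE2 (edgeR adjusted p = 0.00394, 0.0095 and 0.00163). The mating type α markers MF(ALPHA)1 and STE3 did not pass 9.12 CPM in any library. The WT libraries of 105 and 120 min had the lowest shares of all reads carrying a poly(A) tail, 51.3% and 32.2%. The share was 58.0% to 91.7% in the other WT libraries and 52.4% to 76.3% in set1Δ, so that of WT at 105 min was close to the lowest of set1Δ. Results are also given without 105 and 120 min. CPM are scaled by TMM, a method that sets the bulk of genes equal between libraries. In bulk libraries, more Ty1 RNA per cell and more cells with much Ty1 RNA cannot be told apart.

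Ty1 RNA was more abundant in set1Δ than in WT at all 10 time points. The summed Ty1 reads averaged 15506 ± 3483 CPM in set1Δ and 8921 ± 2205 CPM in WT (SD over 10 time points). They made up 1.10% to 2.16% of all reads in set1Δ and 0.530% to 1.42% in WT. In set1Δ the sum was 10487 CPM in the asynchronous culture, 21169 at 0 min, 19169 at 15, 16879 at 30, 16144 at 45, 17175 at 60, 16003 at 75, 12668 at 90, 14821 at 105 and 10544 at 120 min. In WT it was 5856 CPM in the asynchronous culture, 14072 at 0 min, 10598 at 15, 7376 at 30, 7856 at 45, 9566 at 60, 8793 at 75, 8479 at 90, 8084 at 105 and 8532 at 120 min. On this scale the highest library of each strain was that of the arrested cells, and the lowest was the asynchronous one. As a percentage of all reads, the highest set1Δ library was that of 15 min (2.16%, and 2.15% at 0 min) and the lowest WT library that of 120 min (0.530%). In CPM, the ratio of set1Δ to WT was 1.24 at 120 min, 1.49 at 90 min and 2.29 at 30 min, with a median of 1.80. The ratio at 120 min depends on the scaling. As a percentage of all reads, the sum at that time was 1.13% in set1Δ and 0.530% in WT.

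**Figure D1:**
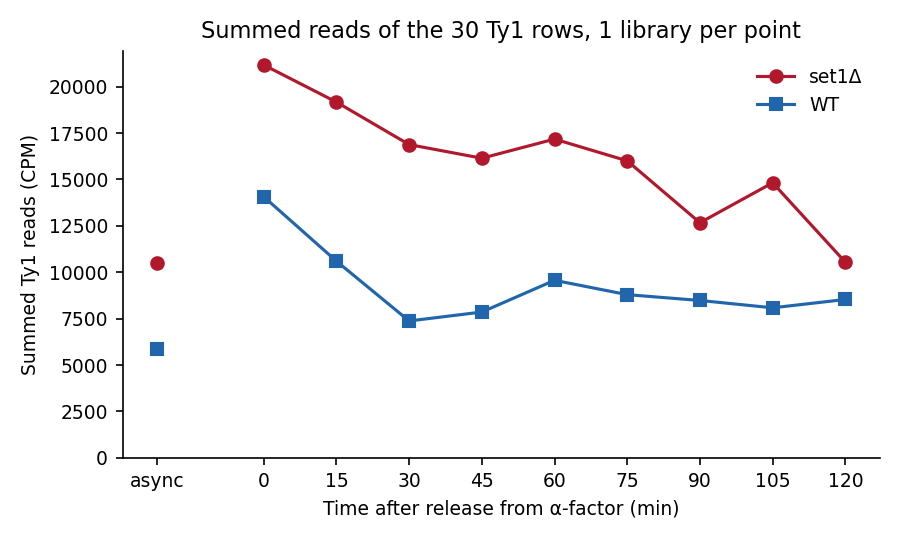
Summed reads of the 30 Ty1 rows (y axis, CPM scaled by TMM) against time after release from α-factor in min (x axis, with the asynchronous cultures at the left), as 1 point per library, circles for set1Δ and squares for WT. Each set1Δ point lies above the WT point of the same time, and both strains are highest at 0 min.

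With time point as a factor, edgeR gave a log2 difference of 0.81 ± 0.12 (SE, set1Δ minus WT) for the sum. Of the 30 rows, 28 were called higher in set1Δ at an adjusted p below 0.05, where 8.44% of all 5060 tested features were called higher. One row, YDR170W-A, was called lower, where 10.5% of all features were. This contrast may have been among the results in view when the rows were proposed, so nothing is read from the counts. The median log2 difference was 0.79 over the 30 rows and −0.01 over all features tested. Each strain was 1 culture with 1 library per time, so the SE covers the spread between time points and not between cultures. Without 105 and 120 min the log2 difference of the sum was 0.86 and the count of higher rows 28.

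The 28 higher rows were above WT at each of the 10 time points. This was not counted over all features, and the rows had been called higher on the same time points, so nothing is read from it. Reads of like copies can be exchanged between rows, so rows of 1 type are not independent measurements. The 5 rows of highest mean level were YER138C, YPL257W-B, YLR157C-B and YML039W of type A and YGR027W-B of type C. YER138C had 542 to 1177 CPM with a median of 877 in set1Δ, and 299.5 to 791 CPM with a median of 418 in WT. Its lowest set1Δ library was thus below its highest WT library, that of the arrested cells, and its log2 difference was 0.95 ± 0.12. The other 4 rows had log2 differences of 0.92 for YPL257W-B, 0.96 for YLR157C-B, 0.94 for YML039W and 0.83 for YGR027W-B.

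The 3 rows with the highest log2 difference were YAR009C, YMR045C and YLR227W-B. YAR009C had 386 to 812 CPM with a median of 661 in set1Δ, and 179 to 575 CPM with a median of 302.7 in WT, a log2 difference of 1.04 ± 0.14. YMR045C had 369 to 598 CPM with a median of 474 in set1Δ, and 179 to 308 CPM with a median of 237 in WT, a log2 difference of 1.01 ± 0.11. The ranges of the strains did not overlap for YMR045C, which was so for 3 of the 30 rows and for 0.455% of all features tested. YLR227W-B had 356 to 724 CPM with a median of 576 in set1Δ, and 213 to 355 CPM with a median of 274 in WT, a log2 difference of 1.01 ± 0.11.

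The 2 rows that were not higher are also the 2 without a full annotated 3′ LTR, a feature noticed after the values were seen. YER160C, with the LTR of 139 bases, had 111 to 321 CPM with a median of 224 in set1Δ, and 71.6 to 339 CPM with a median of 226 in WT. It was above WT at 5 of 10 times, with a log2 difference of −0.00 ± 0.15 that took either sign with the scaling and 0.33 on poly(A) reads only. YDR170W-A (chrIV:803195-804517, plus strand) lies in no annotated element and overlaps an annotated Ty1 LTR (chrIV:802905-803235) at its start. It had 61.2 to 340 CPM with a median of 99.9 in set1Δ, and 49.2 to 493 CPM with a median of 203 in WT. It was above WT at 2 of 10 times, in the asynchronous cultures and at 120 min, with a log2 difference of −0.78 ± 0.24. That call was lost in 12 of 20 alternatives, among them total reads alone, no term for time and 8 of the 10 leave-outs of 1 time point, with edgeR adjusted p up to 0.136, while the log2 difference lay between −0.97 and −0.62 over all 20. All its reads carried a poly(A) tail in the deposited tables, whereas the other listed rows had 11.5% to 71.6% in set1Δ and 17.4% to 80.4% in WT. Without YDR170W-A the log2 difference of the sum was 0.84. The third of the lowest rows, YBR012W-B of type E, had 125 to 252 CPM with a median of 161 in set1Δ, and 80.7 to 161 CPM with a median of 113 in WT, a log2 difference of 0.56 ± 0.10.

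**Figure D2:**
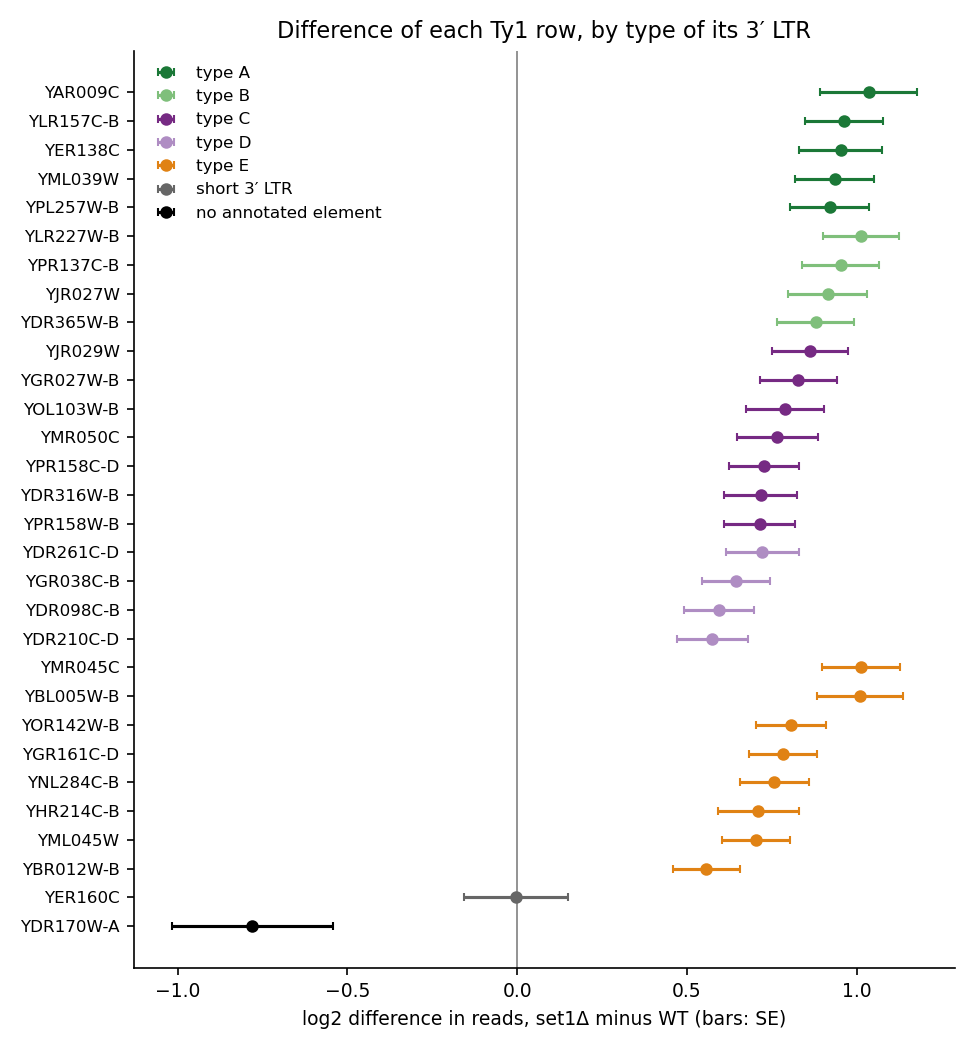
Log2 difference in reads of each of the 30 Ty1 rows, set1Δ minus WT (x axis; points are edgeR estimates, bars SE, over 10 time points per strain), with rows named by gene and coloured by 3′ LTR type. Types A and B lie between 0.88 and 1.04, types C and D between 0.57 and 0.86, and YER160C and YDR170W-A at −0.00 and −0.78.

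Levels and differences by LTR type are a description with no test, since the types were drawn up after the values were seen. The log2 difference was 0.92 to 1.04 in the 5 rows of type A, 0.88 to 1.01 in the 4 of type B, 0.71 to 0.86 in the 7 of type C and 0.57 to 0.72 in the 4 of type D. Type E spanned most of that range, at 0.56 to 1.01 over 8 rows. Rows of type A had mean levels of 471 to 642 CPM over both strains, and rows of type E, whose window holds a single TATAAA, had 142 to 359 CPM. Rows of type D, also with a single TATAAA, had 304 to 437 CPM, and types B and C, with TATAAA in 2 places as in type A, had 397 to 608 CPM. Summed over rows, type A reached 3979 ± 912 CPM in set1Δ and 2067 ± 612 CPM in WT, and type E reached 2573 ± 486 CPM in set1Δ and 1454 ± 242 CPM in WT (SD over 10 time points). All 5 types were higher in set1Δ at each of the 10 times and highest in CPM at 0 min in both strains.

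**Figure D3:**
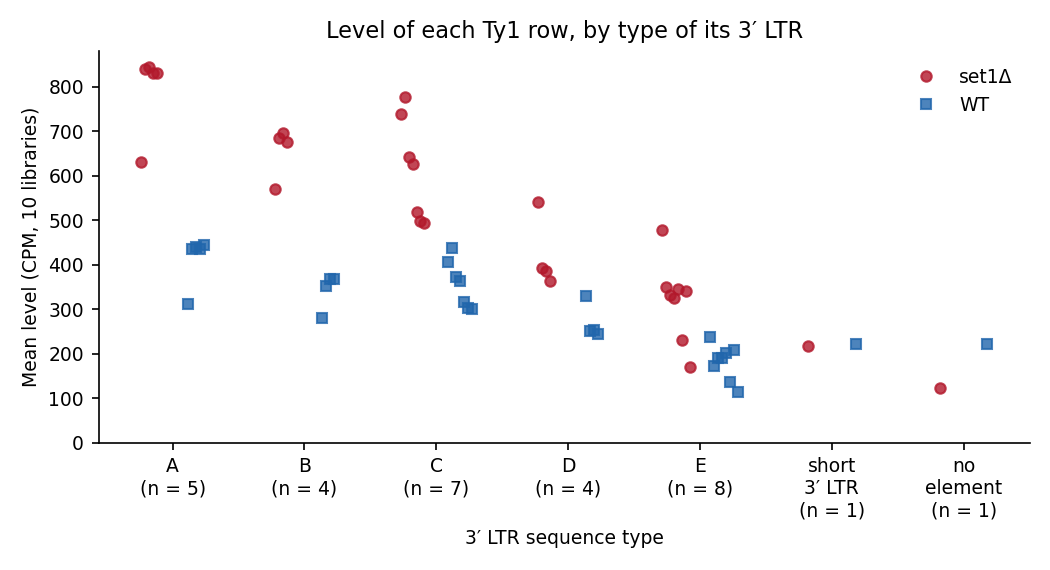
Mean level of each Ty1 row (y axis, CPM over 10 libraries, 1 point per row), set1Δ as circles at the left and WT as squares at the right of each 3′ LTR type. Rows of types A to E lie higher in set1Δ than in WT, with type A at the top, while YER160C (short 3′ LTR) has 218 CPM in set1Δ and 223 CPM in WT.

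Arrest by α-factor went with more Ty1 RNA in both strains. The log2 of the sum at 0 min minus the asynchronous culture was 1.01 in set1Δ and 1.26 in WT, and all 30 rows were up in each strain. The median over all features was −0.01 in set1Δ and −0.03 in WT, and 2.67% of features in set1Δ and 6.28% in WT had a larger change than the sum. After release, the log2 range of the sum was 1.01 in set1Δ and 0.93 in WT, and 1.42 in WT by total reads alone. The median range over all features was 1.04 in set1Δ and 1.39 in WT. On the scale by TMM, the sum therefore ranged less than the median feature in both strains. These ranges include the library of 0 min, that of the arrested cells, where the sum was highest in each strain. They are thus not the range of released cells alone. With 1 library per strain and time, these values have no replicate check. The row maximum after release was at 0 or 15 min for 26 of 30 rows in set1Δ and for 28 of 30 in WT. Peak times were not counted over all features, and rows that share reads are not independent. A difference of the time course between strains was called for 0 of 30 rows with edgeR and a spline of time, and for 12.5% of all 5038 features tested. At an unadjusted p below 0.05 it was 3 of 30 rows, YER160C, YAR009C and YER138C, and 26.3% of all features. In simulated libraries, features of 1 strain swung up and down around their level with a period of 60 or 90 min. This fit missed nearly all that swung by 1 to each side on the log2 scale, and found most that swung by 1.5 to each side. A count of 0 therefore does not show that the courses were alike.

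The mean tail of Ty1 RNA was below that of WT in set1Δ at all 10 times. The weighted mean tail was 18.2 ± 0.706 nt in set1Δ and 21.3 ± 0.662 nt in WT (SD over 10 time points). In set1Δ it was lowest at 30 min with 17.0 nt, had a median of 18.2 nt and was highest at 0 min with 19.5 nt. In WT it was lowest at 120 min with 20.4 nt, had a median of 21.2 nt and was highest at 75 min with 22.6 nt. The ranges of the strains did not overlap. How often that was so among all features was not counted, and the weighted mean pools the reads of 30 rows. The tail difference was smallest at 0 min, −1.14 nt, and largest at 75 min, −4.34 nt. The Ty1 tail minus that of the library's median feature was −13.4 to −8.42 nt in set1Δ and −11.7 to −6.90 nt in WT. Over 3153 features for which each library had 10 or more poly(A) reads, the median of the mean tail was 29.5 nt. The median of the 30 Ty1 rows was 19.4 nt, and 2.95% of those features, the Ty1 rows included, lay below it.

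**Figure D4:**
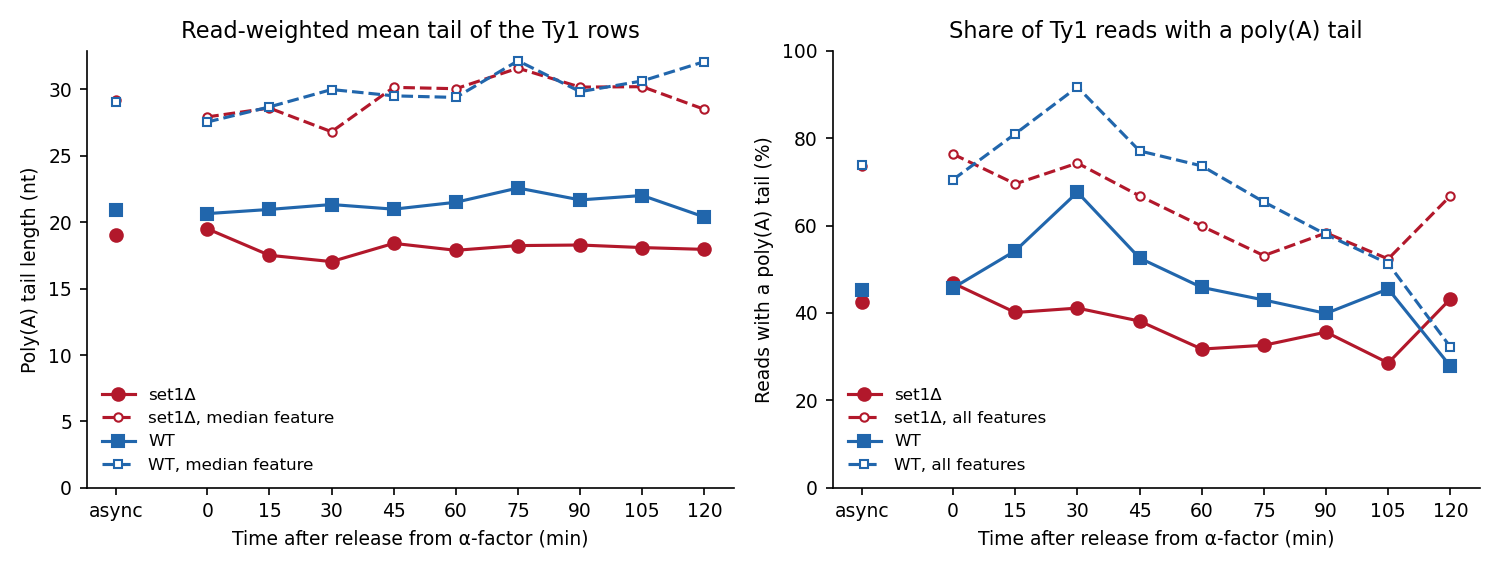
Left, weighted mean poly(A) tail of the Ty1 rows (nt, filled points) and the median tail over features with at least 10 poly(A) reads (open points, dashed); right, percent of reads that carry a tail for the Ty1 rows (filled) and all features (open, dashed), by time after release in min, set1Δ as circles and WT as squares, 1 library per point. The Ty1 tail is shorter in set1Δ at every time, and the tailed share of Ty1 reads is lower in set1Δ at 8 of 10 times.

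Limma gave a difference of −3.10 ± 0.53 nt (SE, set1Δ minus WT) for the weighted mean tail, which did not pass the threshold of an adjusted p below 0.05, beside a median of −0.66 nt over all 4281 features tested. All 30 rows had a shorter mean in set1Δ, a share that was not counted over all features, and their median difference was −2.62 nt. Of the 30 rows, 4 were called shorter at an adjusted p below 0.05, YDR170W-A, YAR009C, YML045W and YJR027W, which are named as the calls after their values were seen. They were also the only 4 calls in the whole table, 0.0934% of the features. In the longer direction 0 rows and 0% of the features were called, and at an unadjusted p below 0.05 the counts were 30 rows shorter and 0 longer, with 10.4% and 2.87% of all features. It is not stated whether tails were among the results in view when the list was proposed, and nothing is read from the counts. The 4 calls lay near the threshold. With 1 time point left out, 8 of 10 fits gave 0 calls and the others, without 0 and without 120 min, gave 5 and 3. The differences themselves stayed between −6.38 and −5.47 nt for YDR170W-A and between −5.85 and −4.89 nt for YAR009C over these fits. After the median of each library was taken away, 0 rows were called and the difference of the weighted mean was −2.54 nt. It was then below WT at 9 of 10 times, and at 120 min it was 1.16 nt above.

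The mean tail of single rows over both strains ran between 15.6 and 25.9 nt. The shortest mean tails among rows averaging 100 or more poly(A) reads were in YMR050C and YER138C. YMR050C had 17.0 ± 0.920 nt in set1Δ and 19.4 ± 1.73 nt in WT (SD, n = 10 each), and YER138C had 17.0 ± 0.910 nt in set1Δ and 19.5 ± 0.645 nt in WT. The longest were in YDR170W-A, with 23.0 ± 1.87 nt in set1Δ and 28.8 ± 2.39 nt in WT, and in YBR012W-B, with 21.3 ± 1.22 nt in set1Δ and 24.7 ± 2.27 nt in WT. YAR009C fell under that minimum with 93.3 poly(A) reads on average, and had 13.0 ± 0.824 nt in set1Δ and 18.2 ± 2.59 nt in WT.

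A smaller share of the pooled reads of the 30 listed rows than of all reads carried a tail, which did not hold for every Ty1 row outside the list (below). The share was 38.1% ± 5.79 in set1Δ and 46.7% ± 10.3 in WT (SD over 10 time points), against 65.1% ± 8.75 of all reads in set1Δ and 67.5% ± 16.8 of all reads in WT. The Ty1 share was lower in set1Δ at 8 of 10 times, with a difference of −26.5 percentage points at 30 min, and higher at 0 and 120 min. The share of all reads was 74.3% in set1Δ and 91.7% in WT at 30 min. At 105 min it was 52.4% in set1Δ and 51.3% in WT, while the Ty1 difference was −16.9 percentage points. At 90 min it was 58.3% in set1Δ and 58.0% in WT, with a Ty1 difference of −4.28 points. When poly(A) reads alone were counted, the log2 difference of the Ty1 sum was 0.56. With reads pooled over times, the share was lower in set1Δ for 28 of 30 rows. This was not counted over all features, so the count is not read as particular to Ty1. It was 24.9% in set1Δ and 33.0% in WT for type A, and 46.4% in set1Δ and 60.2% in WT for type E.

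Rows of other retrotransposons are given for comparison. The 10 Ty2 rows summed to 777 ± 240 CPM in set1Δ and 491 ± 159 CPM in WT (SD over 10 time points), higher in set1Δ at 10 of 10 times, and 7 of the 10 rows were called higher and 0 lower. Their weighted tail was 21.3 ± 0.846 nt in set1Δ and 24.6 ± 1.37 nt in WT, shorter in set1Δ at 10 of 10 times. The 2 Ty3 rows, of another family, which mating pheromone is known to induce, summed to 151 ± 105 CPM in set1Δ and 469 ± 239 CPM in WT, lower in set1Δ at 10 of 10 times, and both were called lower. Their log2 change on arrest was 3.86 in set1Δ and 4.75 in WT. The 3 Ty4 rows had 142 reads in all and were not tested. Of the 3 Ty1 rows that are not on the list, YAR010C and YNL054W-A were called higher and YLR256W-A, with 120 reads, was not tested. YLR035C-A, which lies in no annotated element and whose frame is 99.7% identical to a listed Ty1 frame, had 295 ± 77.4 CPM in set1Δ and 168 ± 54.6 CPM in WT and was called higher. With reads pooled over times, the tailed share of YAR010C was 75.0% in set1Δ and 77.1% in WT. It was 98.6% in set1Δ and 98.5% in WT for YNL054W-A, both rows being annotated as gag alone. For YLR035C-A it was 17.7% in set1Δ and 25.0% in WT, and for Ty2 61.1% in set1Δ and 69.6% in WT.

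Genes known to act on Ty1 were taken as 3 groups. Of 17 transcription regulators of Ty1, 0 were called higher and 2 lower (median log2 difference −0.03), where 8.44% of all features were called higher and 10.5% lower, so the share called lower was near that of all features. TEC1, the partner of Ste12 at Ty1, had 68.5 CPM on average in set1Δ and 169 CPM in WT, was below WT at each of the 10 times, and had a log2 difference of −1.50 ± 0.24 (edgeR adjusted p = 0.000422). TYE7, a helix-loop-helix activator, had a log2 difference of −0.89 ± 0.24 (edgeR adjusted p = 0.0172, and 0.0512 without 45 min). Of 17 tested genes that restrict Ty1 or keep the genome intact, 1 was called higher and 1 lower (median 0.02), shares below those of all features. FUS3, the mating-pathway kinase known to restrain Ty1 transposition, had 131 CPM on average in set1Δ and 361 CPM in WT, with a log2 difference of −1.85 ± 0.25 (edgeR adjusted p = 0.000126, and 0.0817 with no term for time). SRS2, a DNA helicase, had 0.65 ± 0.12 (edgeR adjusted p = 0.00166, and 0.205 with no term for time). Of 8 tested genes of messenger RNA turnover, particle assembly and integration, 2 were called higher and 1 lower (median 0.19), too few genes to read against the 8.44% and 10.5% of all features. XRN1, the cytoplasmic 5′ to 3′ exonuclease, had 0.53 ± 0.11 (edgeR adjusted p = 0.00398), and DBR1, the lariat-debranching enzyme that Ty1 transposition needs, had −0.57 ± 0.11 (edgeR adjusted p = 0.00163). PAT1, a decapping activator, had 0.44 ± 0.15 (edgeR adjusted p = 0.0464), a call that 8 of 10 leave-outs lost, and that had an edgeR adjusted p of 0.128 without 105 and 120 min.

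Among features not annotated as retrotransposon genes, those whose course was most like the Ty1 sum were YOR192C-C, YNL208W, HAP1, SCO2 and FMP46. Likeness was Pearson's r of log2(CPM + 1) over the 20 libraries after each strain's mean was taken away, among 2507 features with a mean of at least 50 CPM, and all points share their libraries with the sum. It was 0.91 for YOR192C-C, 0.85 for YNL208W, 0.85 for HAP1, 0.78 for SCO2 and 0.76 for FMP46. In assembly R64, YOR192C-C (chrXV:703988-704224, minus strand) overlaps the end of the element YORCTy2-1. HAP1 (chrXII:646415-650923, plus strand), a haem-responsive activator, there overlaps the start of the element YLRWTy1-3. Whether these cells hold either element at that place was not tested. Overlap with an annotated element or LTR was found for 4 of 2478 such features with a place in the annotation. Both were higher in set1Δ, YOR192C-C by 1.46 ± 0.14 and HAP1 by 0.58 ± 0.10 on the log2 scale (edgeR adjusted p = 1.47e-05 and 0.000963). YNL208W had a log2 difference of −1.13 ± 0.24 (edgeR adjusted p = 0.00374), and the nearest annotated element or LTR lies 151718 bases away.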

How the data were processed

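Both strains were profiled as 20 libraries. The authors deposited read counts per feature, whole numbers used as raw counts, and counts of those that carry a poly(A) tail. They also deposited a mean tail length in nt over those reads, an other unit here, and the product of mean and number was whole within 1e-06 for 99.997% of values. Per the submitters' processing notes, Bowtie2 2.2.5, Bowtie and build sacCer3 were used, without roles. The counter, annotation, strand setting and treatment of reads with several matches are not given in the sources used here. Sense and antisense reads therefore cannot be told apart. Sequences and coordinates were read from RefSeq's assembly R64, which sacCer3 names.

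Counts were tested with edgeR 4.0.16 in R 4.3.3 (quasi-likelihood, robust, TMM) on features with a mean count of at least 10, time as a factor of 10 levels, the Benjamini-Hochberg method over the whole table and an adjusted p below 0.05. The 30 rows were tested singly and, in a second fit, as 1 summed row. Profiles used a natural spline of 5 degrees of freedom times strain on 18 libraries. Tails were tested with limma 3.58.1 (robust, trend) on values of at least 10 poly(A) reads, with at least 8 values per strain. Alternatives were DESeq2 1.42.0, limma-voom, other scalings, filters and left-out times. Each fit was tested on simulated data. The profile fit recovered none of the changed features in the first simulation (period 60 min, log2 amplitude 1), after which amplitude 1.5 and period 90 min were added and the fit was left as it was.

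The members, gene groups and tests were chosen with earlier results of these data known. Rows were named as the 5 of highest level, the 3 highest and 3 lowest strain differences and the 2 longest and 2 shortest tails. Listed genes were named by smallest p, up to 3 per direction. Groups came from the labels. Other retrotransposons were grouped by annotated family, where grouping by protein identity had been planned, because no protein table was at hand. Replicate numbers were given in accession order and pair nothing, libraries were paired by time alone, and p-values measure the spread between time points of 1 culture per strain.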

Additional observations from a re-analysis of the deposited data

Results flagged for a closer look

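In the 58 series of 10 libraries examined (levels and tails of named rows and of family sums, by strain), 10 single libraries stood far from the others by Dixon's ratio at the 95% level, which flags about 1 in 20 series by chance.

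At 0 min, WT stood high for YER138C with 791 CPM, for YLR157C-B with 772 CPM, for YPL257W-B with 753 CPM and for YAR009C with 575 CPM. The next WT libraries had 499, 490, 528 and 344 CPM. These rows are all of type A and can share reads. In set1Δ at 0 min, YDR170W-A stood high with 340 CPM, next to 159 CPM.

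Among tails, all in WT, YDR170W-A stood low at 120 min with 22.4 nt, where the next library had 28.5 nt. YGR027W-B stood low at 105 min with 17.0 nt and YLR227W-B high at 105 min with 24.1 nt. At 75 min, YLR157C-B stood high with 21.9 nt and YPL257W-B with 23.1 nt. The WT libraries of 105 and 120 min are those with the lowest tailed shares of all reads, and the part of that share in these values was not tested.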

How the results depend on the processing

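The log2 difference of the Ty1 sum kept its sign and its call in all 21 alternatives, at 0.54 to 0.87. The lowest came when rows that join several genes were left out, which leaves 2 rows. The count of rows called higher was 26 to 28 elsewhere and 1 of 2 in that setting. The difference of the weighted tail kept its sign in all 17 alternatives. It passed limma's threshold with a minimum of 50 poly(A) reads at −3.10 nt, with no term for time at −3.10 nt and with joined rows left out at −7.57 nt, and did not otherwise. The count of rows called shorter, 4, was 27 with a minimum of 50 poly(A) reads (where 3.38% of 1748 features were called), 17 with no term for time, 1 without 105 and 120 min, 1 with joined rows left out and 0 after subtracting the library median. Over the leave-outs of 1 time point it was 0 to 5.

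The range after release moved to 0.94 in set1Δ and 1.42 in WT with total reads alone, to 1.00 in WT with DESeq2 size factors, and to 0.74 in set1Δ without 105 and 120 min. The change on arrest moved to 0.96 in set1Δ with total reads alone, and on poly(A) reads only to 1.15 in set1Δ and 1.31 in WT. YER160C, near 0, turned its sign with DESeq2 size factors (0.0081), DESeq2 (0.0082), total reads alone (0.065), without YDR170W-A (0.0046), without 105 and 120 min (0.16) and on poly(A) reads only (0.33, called higher), and lay between −0.081 and 0.12 over the leave-outs. The cause of these moves was not tested. The setting without YDR170W-A, and those with no term for time or without joined rows for the tail calls, were chosen after seeing the data.

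Libraries of the same time were paired by the time factor, and without it the log2 difference of the sum was 0.81 with an SE of 0.16. Replicate numbers were given in accession order and were not used for pairing. With 1 culture per strain and 1 library per time, strain and culture cannot be told apart. Depth was not the limit for the sum, which had at least 6617 reads per library.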
